A study of Homo sapiens with 4 samples.

Results

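Deep intragenic binding of the oestrogen-related receptor ERRα is described here, that is, ChIP-seq summits inside a protein-coding gene and more than 10 kb from the start or end of any protein-coding gene. ERRα was immunoprecipitated from MDA-MB-231, an established line of invasive, triple-negative human breast cancer cells, with 5 µg of an antibody after fixation with 1% formaldehyde. There are 2 ChIP replicates from 2 cell cultures, and 2 inputs, which are chromatin without immunoprecipitation. Both replicates' peaks were called against the same 2 inputs, and the labels give no treatment, genotype or time for any library. No expression data are part of the series, so the identity of the line was not checked against marker genes. Members were taken from the deposited list of peaks matched between the replicates, by position alone. Of 10026 matched peaks on chromosomes 1 to 22 and X, 3051 met the rule (30.4%, exact 95% interval 29.5 to 31.3, counting error only).

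ERRα is an orphan nuclear receptor that binds DNA as a monomer or dimer at the sequence TCAAGGTCA, an extended form of the AGGTCA core that many nuclear receptors share. It is best known for genes of mitochondrial energy metabolism, where its sites often lie at promoters. Nuclear receptors also bind at enhancers, many of them in introns far from the start of the gene that holds them, and the gene that holds such a site need not be the one it acts on. Host gene below therefore means only the gene whose start and end enclose the summit. The gene table used here has no exons, so exonic and intronic summits were not told apart.

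A small set of deep summits lay at inner start sites, where sequence was at hand. RefSeq promoter windows (GRCh38.p14, 250 bases before to 50 after each annotated start) were matched to the summits on every chromosome but 8. Of 2925 deep summits there, 30 fell in such a window (1.03%, exact 95% interval 0.693 to 1.46), while the windows made up 0.149% of the gene interior. In 24 the start belonged to the host gene itself, that is, to a transcript that begins inside the gene, and in 6 to another transcript, mostly non-coding. In 27 of the 30 the summit was at or before the start site, where most of each window lies. The motif TNAAGGTCA, on either strand, was in 8 of the 30 (26.7%, exact 95% interval 12.3 to 45.9), against 0.960% of all 34781 promoter windows and 1.01% of the 4764 windows that lie deep inside genes. It was in 7.07% of 311 windows that held a summit within 1 kb of a gene end. The shorter AAGGTCA, which overlaps it, was in 14 of the 30 (46.7%), against 3.92% of all windows. For the other motifs the windows deep inside genes are the nearer comparison. AP-1 (TGANTCA) was in 3 of 30 (10%), against 11.3% of those windows and 7.69% of all windows. RUNX (TGTGGT) was in 3 (10%), against 16.3% and 13.1%, and TEAD (GGAATG) in 11 (36.7%), against 17.3% and 14.1%. ETS (CCGGAAG) was in 6 (20%), against 4.28% of deep windows and 10.2% of all, and in 36.3% of the windows with a gene-end summit. A match is a description of the letters, and no test was made on these 30 windows.

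The stretches that hold a match before the inner start site are printed to show the receptor sequence beside the summit. They are from RefSeq (GRCh38.p14), 5′ to 3′ in the direction of transcription, with the matched motif in capitals. Capitals that begin with TGACCTT are the motif on the other strand. In 2 of the 8 windows with TNAAGGTCA the match was not in the stretch before the start, and these are not printed. The first sequence, at RARB, holds no TNAAGGTCA; it was chosen after its values were seen, for a direct repeat of receptor half-sites with 5 bases between. RARB encodes the retinoic acid receptor beta, and such a repeat is the classical retinoic acid response element of its inner promoter.
RARB, chr3:25428170-25428262, plus strand: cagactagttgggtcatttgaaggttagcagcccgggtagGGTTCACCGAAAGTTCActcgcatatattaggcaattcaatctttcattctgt
MXRA7, chr17:76688783-76688871, minus strand: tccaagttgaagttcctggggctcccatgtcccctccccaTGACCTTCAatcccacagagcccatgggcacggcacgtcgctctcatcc
SLC41A3, chr3:126057126-126057186, minus strand: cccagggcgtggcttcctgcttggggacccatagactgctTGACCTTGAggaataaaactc
CORO2B, chr15:68616399-68616487, plus strand: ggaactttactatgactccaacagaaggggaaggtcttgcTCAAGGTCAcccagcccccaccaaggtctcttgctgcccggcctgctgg
LOC100126584 inside TPD52L1, chr6:125197877-125197965, minus strand: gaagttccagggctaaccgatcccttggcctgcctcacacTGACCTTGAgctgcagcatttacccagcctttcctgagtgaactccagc
KCTD1, chr18:26548575-26548663, minus strand: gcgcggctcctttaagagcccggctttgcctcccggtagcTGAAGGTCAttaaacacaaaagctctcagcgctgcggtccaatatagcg
LOC124902252 inside COL27A1, chr9:114290873-114290961, minus strand: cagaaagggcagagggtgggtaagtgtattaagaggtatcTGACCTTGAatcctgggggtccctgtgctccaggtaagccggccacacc

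The RARB summit was the strongest of the 30, with a fold enrichment over input of 62.6 in replicate 1 and 62.7 in replicate 2. It lay 64 bp before the inner start, 19 bp from the middle of the repeat and 169706 bp from the nearest gene end. The repeat was in 6 of all 34781 windows (0.0173%). RARB held a further deep summit, with folds of 48.6 and 52.4. At MXRA7 the fold was 28.2 in replicate 1 and 29.4 in replicate 2, at SLC41A3, a magnesium transporter, 19.03 and 18.5, and at CORO2B, an actin-binding coronin, 12.6 and 9.67. In MXRA7, SLC41A3 and CORO2B the middle of the motif was within 21 bp of the summit. The summit at LOC100126584 (9.51 and 12.1) was 3 bp from the middle of its motif. Those at LOC124902252 (4.49 and 4.75) and KCTD1 (4.24 and 6.85) were weaker, at 30 and 33 bp from the middle of the motif. Further start-site summits with AAGGTCA but not the longer motif were at TNS1, a focal adhesion protein (16.0 and 12.1), TACC2 (11.0 and 11.3) and PACSIN2 (10.1 and 8.10). The median fold of the 30 was 9.13 in replicate 1 and 7.50 in replicate 2, and 15 of 30 passed an irreproducible discovery rate (IDR) of 0.05, which is a deposited score of at least 540. Over all matched peaks 50.4% passed it.

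The fold enrichments of deep summits had medians near those of the other matched peaks. The median fold enrichment was 8.66 in replicate 1 (quartiles 6.38 and 13.3) and 8.26 in replicate 2 (6.33 and 12.6). For all matched peaks the medians were 8.65 and 8.39, for summits inside a gene at 1 to 10 kb from an end 8.75 and 8.46, for those within 1 kb of an end 8.53 and 8.46, and for those outside protein-coding genes 8.60 and 8.23. Of the deep summits 1530 passed IDR 0.05 (50.1%, exact 95% interval 48.4 to 51.9). The share was 51% for summits at 1 to 10 kb, 50.2% at gene ends and 50.5% outside genes. At the stricter IDR of 0.01 (score of at least 830) 1175 deep summits passed (38.5%), beside 38.7% of all matched peaks. A −log10 q of at least 5 in both replicates was reached by 2635 (86.4%), beside 85.7%. Their median peak width was 628 bp, as outside genes, against 720 bp at gene ends. Folds above 20 were found for 11.7% of deep summits in replicate 1 and 11.0% in replicate 2, against 14.2% and 13.5% at gene ends. These are descriptions over peaks of the same 2 ChIP libraries, and no test was made between the classes.

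The replicates ranked the deep summits alike. Spearman's correlation of their folds was 0.853 over the 3051, and over all matched peaks 0.859, both within a list that keeps only peaks found in both. In the lists of the single replicates, 4252 of 14032 peaks were deep in replicate 1 (30.3%) and 3811 of 12603 in replicate 2 (30.2%). Of these, 72.0% in replicate 1 overlapped a peak of the other replicate by at least 1 bp, and 80.3% in replicate 2, beside 71.8% and 79.9% of all peaks. Deep peaks without a partner were weaker, with median folds of 5.33 and 5.38, than those with one, at 8.65 and 8.23.

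The strongest deep summits were far above the median. The highest, inside ERGIC1, whose product cycles in the early secretory pathway, had folds of 310 and 284 (mean 297 ± 18.7, SD, n = 2; chromosome 5, 172909232 to 172911382). CRIM1, a transmembrane protein that binds bone morphogenetic proteins, followed with 262 and 239 (250 ± 15.6, SD, n = 2). PCCA, a subunit of mitochondrial propionyl-CoA carboxylase, had 180 and 155 at 303839 bp from its start. The summit in PITPNM3, of the phosphatidylinositol transfer family, had 150 and 158 and lay 19461 bp from a gene end. The broad peak in CMIP (5765 bp) had 127 and 142. The deposited matched folds of CMIP in replicate 2 (169) and ERGIC1 in replicate 1 (315) were sums of 2 peaks each, and the value of the higher is used. ARID3A, a DNA-binding protein, had 139 and 127, and EGFLAM, a matrix protein, 110 and 116. SASH1, a scaffold protein, had 103 and 102, and TRAM2, of the endoplasmic reticulum, 98.6 and 94.8. The rest of the 15 strongest were in BCL2L1, PRKCH, ARID1B, RET, EPN2 and SIPA1L3. RET, a receptor tyrosine kinase, had 83.9 and 79.6, and ARID1B, a subunit of SWI/SNF chromatin remodelling complexes, 85.5 and 82.02. Replicate 1 was the higher in 12 of the 15, beside 55.0% of all deep summits and 54.4% of all matched peaks. Among the 15 the replicates differed by at most 1.22 times.

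**Figure D1:**
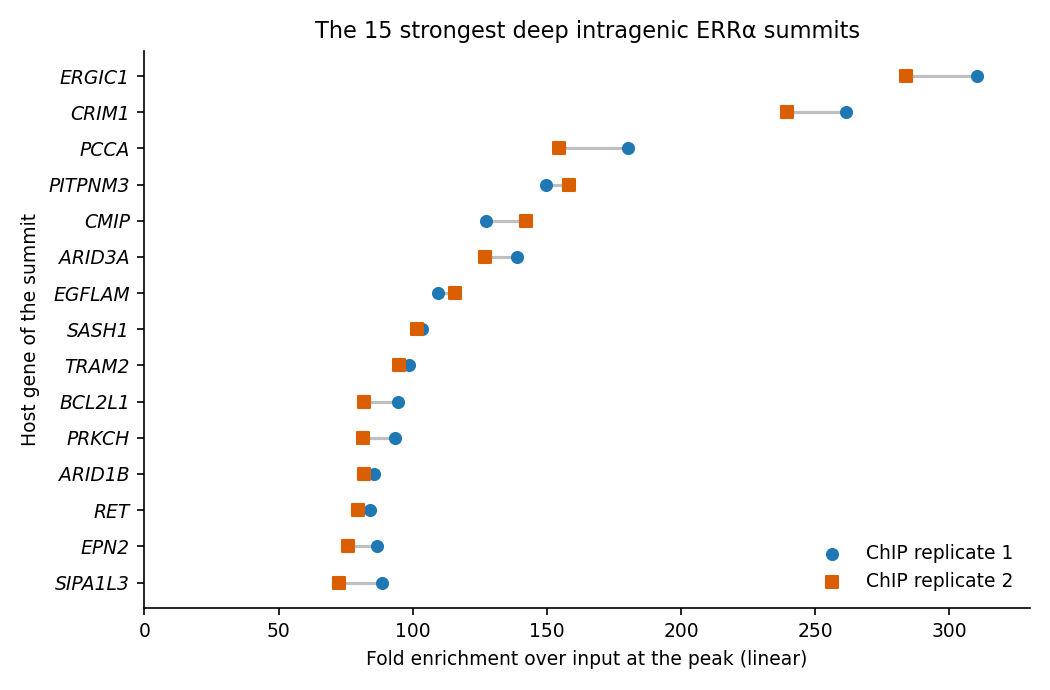
Fold enrichment over input (linear axis) of the 15 strongest deep intragenic summits, one row for each host gene, with a circle for ChIP replicate 1 and a square for replicate 2. The summit in ERGIC1 reached 310 and 284, and the lowest row, SIPA1L3, 88.6 and 72.6.

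Many deep summits lay very far from any gene boundary. The median distance to the nearest protein-coding gene end was 37.7 kb, 1218 summits (39.9%) were more than 50 kb away and 558 (18.3%) more than 100 kb, up to 888 kb. Strength varied little with distance. Between 10 and 20 kb the median folds were 8.38 and 8.06 and 48.6% passed IDR 0.05, and between 100 and 200 kb 9.03 and 8.80 with 54.5%. At the 10 kb limit itself, the nearest member, in SLCO4A1 at 10006 bp, had folds of 5.55 and 6.93, and the nearest summit left out, in CASP5 at 9995 bp, had 6.41 and 7.65. Where the strand of a single host gene was known (2460 summits), the median distance from its start was 66.6 kb. Each host gene was cut into 5 equal stretches, from 10 kb after its start to 10 kb before its end. The first held 21.5% of the summits (exact 95% interval 19.9 to 23.2), followed by 20.7%, 20.2%, 19.8% and, in the last, 17.9% (16.4 to 19.5). Parts near the ends of other genes, where no deep summit can lie, were not taken out of these stretches. Both replicates' own lists had the same order of the first and last stretch, with 21.7% and 18.3% in replicate 1 and 21.6% and 18.2% in replicate 2.

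Longer genes offer more room for deep summits, so counts were scaled to gene interior, the bases of a gene more than 10 kb from any protein-coding gene end. All interiors together made up 958 Mb, or 31.6% of the length of these chromosomes, and held 30.4% of the summits. The mean rate was 0.319 deep summits per 100 kb, or 1 in 314 kb, against 0.331 matched summits of any kind per 100 kb of chromosome. Of 10786 protein-coding genes with any interior, 1955 (18.1%) held at least 1 deep summit, 248 (2.3%) at least 3 and 62 (0.575%) at least 5. A summit in overlapping genes was counted for each, which concerned 43 summits.

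The share of genes with a deep summit rose from 4.2% at up to 20 kb of interior to 57.2% at 500 to 1000 kb. It was 47.7% above 1000 kb. Gene by gene, with genes without a summit included, Spearman's correlation of density with interior was 0.318. Pooled over each length group, however, density fell with length. In genes with up to 20 kb of interior the density was 0.528 per 100 kb (95% Poisson interval 0.451 to 0.615, counting error only). It was 0.430 (0.396 to 0.465) at 50 to 100 kb, 0.294 (0.275 to 0.315) at 200 to 500 kb and 0.0713 (0.0549 to 0.0911) above 1000 kb. The interval of the longest genes lay apart from those of all the shorter groups. The order was the same in each replicate's own list, from 0.752 down to 0.111 in replicate 1 and from 0.663 down to 0.103 in replicate 2.

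**Figure D2:**
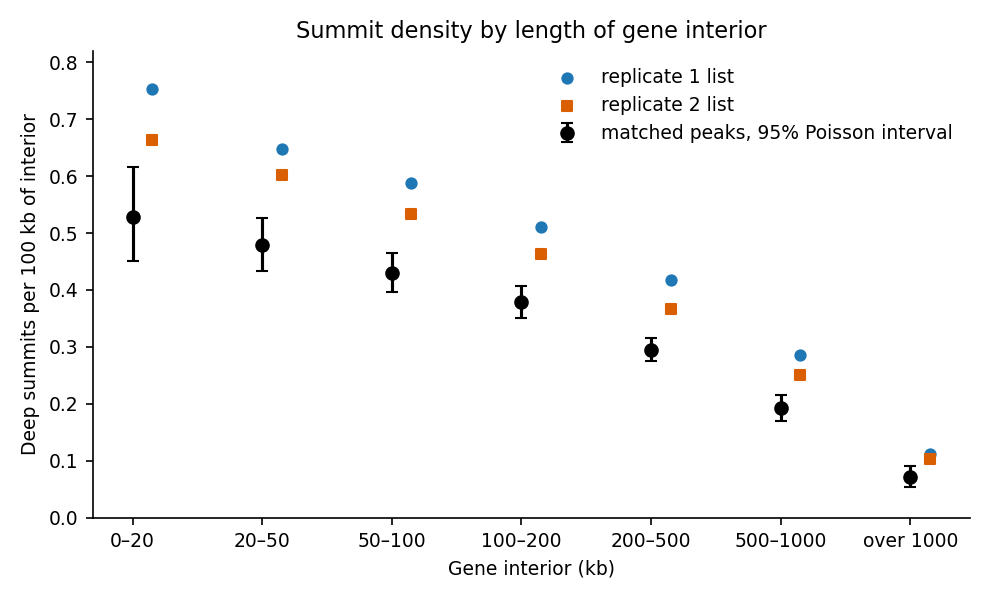
Deep summits per 100 kb of gene interior (linear axis from 0) in 7 groups of genes by interior length in kb; black points with 95% Poisson intervals are matched peaks, circles and squares the lists of replicates 1 and 2. Density fell from 0.528 in the shortest group to 0.0713 in genes with over 1000 kb.

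Several of the longest genes held no deep summit. RBFOX1, a splicing factor of neurons and muscle, had 2454 kb of interior and no matched summit, where the mean rate would give 7.82 and the rate of genes of like interior length 1.75. A count of 0 allows up to 0.122 per 100 kb (3 counts). CNTNAP2, PTPRD, DMD, CSMD1, MACROD2 and DAB1 also had none, where the rate of genes of like length would give between 1.08 and 1.63 each (4.82 to 7.28 at the mean rate). DMD encodes the muscle protein dystrophin, and CNTNAP2 a neuronal adhesion protein. In the single lists, replicate 2 had 1 deep peak each in RBFOX1 and CNTNAP2, replicate 1 had 2 in DAB1, and the others had none in either. Of 65 genes with over 1000 kb, 31 held at least 1. NRXN3, a synaptic adhesion gene, and PCDH15, a cadherin of hair cells, had 4 each. The strongest in NRXN3 had folds of 31.3 and 33.2, and that in PCDH15 21.7 and 22.6. The densities of NRXN3 and PCDH15, 0.238 and 0.222 per 100 kb, were below the mean rate of all interiors but 3.34 and 3.11 times the rate of genes of like length. Both were named for a high count within a list, so a ratio above that of like genes follows from the choice. The like-length rate also includes their own summits.

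By count in the matched list, COL27A1 and BCAR3 came first with 11 deep summits each, followed by GSE1 with 10. The single lists had another order: GSE1 (16), EXT1 (15) and KCNMA1 (14) came first in replicate 1, and GSE1, CUX2 and KCNMA1 (13 each) in replicate 2. The mean rate would put 0.441 in COL27A1, 0.849 in BCAR3 and 1.55 in GSE1. PREX1, a guanine nucleotide exchange factor for the GTPase Rac, CUX2, a homeobox transcription factor, EXT1, an enzyme that polymerises heparan sulfate, and KCNMA1, a calcium-activated potassium channel, had 9 each. There were 8 each in NOL4L, DLGAP4, CMIP, ATP2B2, IQSEC1, GABBR2, RGS6 and CAST. ATP2B2 is a calcium pump of the plasma membrane, and CAST an inhibitor of calpain proteases. ME3, the mitochondrial NADP-dependent malic enzyme, CHST11, a chondroitin sulfotransferase, and ASAP1, a regulator of ARF GTPases, had 7 each. With 6 summits 18 genes tied, and the densest of them, BCL2L1 and SLC6A6, were taken to complete the 20. The counts of the 20 over that of the mean rate ran from 3.40 in CAST to 47.7 in BCL2L1. Against genes of like interior length the same ratios were 5.63 and 31.7. The 20 were picked for their counts, so high ratios follow from the choice. Of the 20, 16 were among the top 20 in replicate 1's own list and 15 in that of replicate 2. With IDR 0.05 it was 7 of them, and CUX2 and COL27A1 then led with 7 each, before PREX1 with 6.

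**Figure D3:**
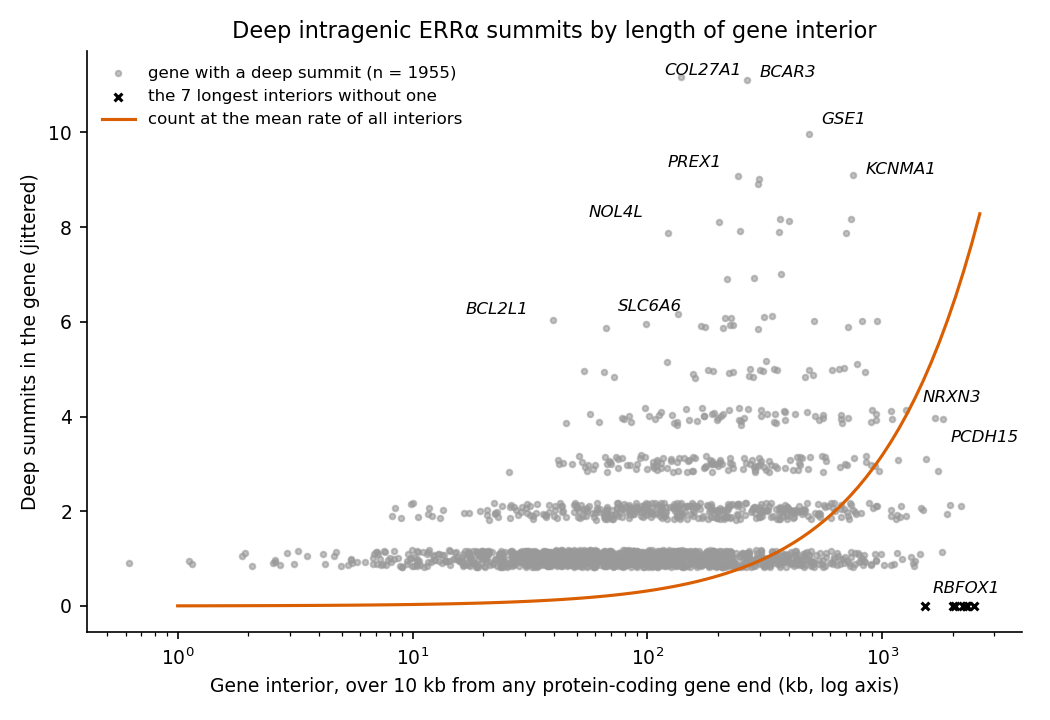
Deep summits in each gene (jittered by less than 0.2) against the length of its interior in kb (log axis), for 1955 genes with a summit; crosses mark the 7 longest interiors without one, and the line the count at the mean rate of 0.319 per 100 kb. COL27A1 and BCAR3 are highest with 11, and BCL2L1 stands farthest to the left among genes with 6.

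Allowing for length, BCL2L1 came first among genes with at least 3 deep summits and 20 kb of interior. It encodes BCL-XL, an inhibitor of apoptosis at the outer mitochondrial membrane, and lies on chromosome 20 from 31664452 to 31723963 (minus strand). Its 39.5 kb of interior held 6 deep summits, or 15.2 per 100 kb (95% Poisson interval 5.57 to 33.1). The single lists gave 6 in replicate 1 and 8 in replicate 2. Counted from its start, the summits lay at 10143, 19337, 22927, 27639, 29129 and 47602 bp. The summit at 27639 bp had folds of 94.7 and 81.9 (mean 88.3 ± 9.01, SD, n = 2), far above its neighbours. The one at 22927 bp had 20.4 and 21.3, those at 19337 and 10143 bp 11.0 and 13.4, and 12.1 and 11.6. These 4 passed IDR 0.05. The last, at 47602 bp, had 7.29 and 7.52, and the weakest, at 29129 bp, 4.67 and 4.45.

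Next in density came ADGRG1, an adhesion G protein-coupled receptor (3 summits, 11.6 per 100 kb), NIBAN2 (5, 9.31), the taurine transporter SLC6A6 (6, 9.02) and the calcium sensor NCS1 (4, 8.91). COL27A1 (7.95), PPARD (7.62), the cytoskeletal linker PLEC (7.21), FA2H, a fatty acid hydroxylase (7.17), and the lysosomal channel gene TPCN1 (7.003) followed. The remaining genes of the first 15 were CCDC85C, WNT7A, NOL4L, DAP and TMEM51, down to 6.26 per 100 kb. All 15 were picked as the densest of the genes with at least 3 summits and 20 kb of interior, and their intervals are wide. That of ADGRG1 ran from 2.40 to 33.9, so neighbours in this order cannot be ranked. ADGRG1 had none left beyond 20 kb, where little of the gene remains, or at IDR 0.01, and PLEC and WNT7A none at IDR 0.01. Within NCS1 a single summit stood out, with folds of 66.6 and 60.0, while the other 3 had between 4.74 and 9.79.

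COL27A1, a fibrillar collagen gene on chromosome 9 from 114154098 to 114312511, combined a high count with a high density and strong peaks. Of its 11 summits 7 passed IDR 0.05, and each single list also held 11. From 64330 to 71081 bp after the start, 5 summits followed each other. The strongest of them had folds of 54.3 and 69.9 (mean 62.1 ± 11.0, SD, n = 2), and the last 20.8 and 21.3. Toward the end of the gene a further group had folds of 13.4 and 10.5, 15.6 and 21.0, and, at the inner start LOC124902252 shown above, 4.49 and 4.75.

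BCAR3, an adaptor of the p130Cas signalling complex that was named for resistance to antioestrogens, showed another picture. Its 11 summits spread over chromosome 1 from 93630930 to 93821142, and 11 and 12 were found in the lists of replicates 1 and 2. Only 1 passed IDR 0.05, with folds of 20.6 and 13.4 at 27009 bp from the start. The other 10 had folds between 4.21 and 8.09. Of 9 summits each, 6 in PREX1 and 7 in CUX2 passed IDR 0.05. In PREX1 5 summits lay between 138383 and 152236 bp from the start, with the strongest at 19.8 and 18.7. In CUX2 the strongest had 36.5 and 36.6, and another 35.2 and 25.9. GSE1, a component of histone deacetylase complexes, had its strongest summit 199334 bp from the start, with 60.1 and 66.0.

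**Figure D4:**
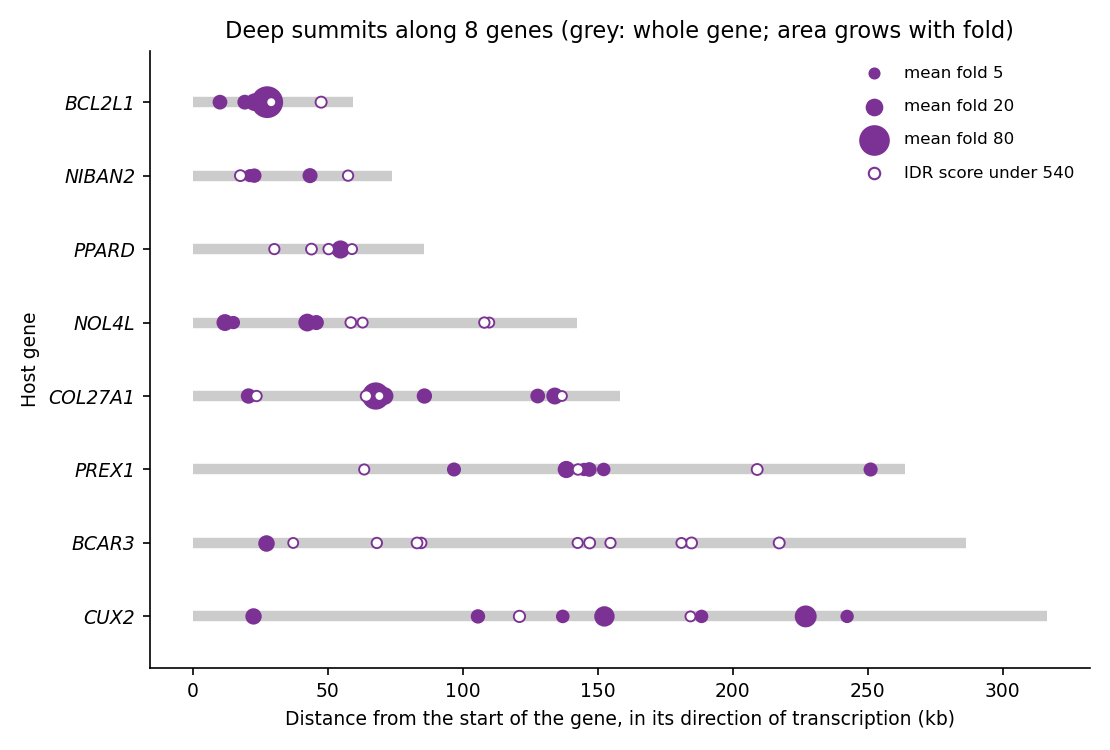
Deep summits along 8 host genes, drawn from the start of each gene in its direction of transcription (kb); grey bars are whole genes, the area of a circle grows with the mean fold of both replicates, and open circles have an IDR score under 540. BCL2L1 and COL27A1 each hold 1 dominant summit among neighbours, and BCAR3 has 10 open circles and 1 filled.

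Among 1139 pairs of neighbouring deep summits in the same gene, the median spacing was 28.01 kb, 176 pairs (15.5%) were within 5 kb and 56 within 2 kb. The closest were 764 bp apart. A matched summit within 1 kb of an own end was found in 8.06% of 248 genes with 3 or more deep summits (exact 95% interval 5.00 to 12.2), in 9.02% of 1707 genes with fewer, and in 8.33% of 8831 with none. Of the 20 genes with most deep summits, DLGAP4 and ME3 also had one at an end. The 3 groups differ in length, with median interiors of 225, 95.4 and 29.5 kb.

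Among 13 lists of genes by function, the density of matched summits was highest for integrin and focal adhesion genes. This order did not hold for summits that passed IDR 0.05, where TGF-beta, BMP and SMAD genes stood at 0.671 per 100 kb, extracellular matrix genes at 0.475 and adhesion genes at 0.465. Without BCAR3 the matched density of the adhesion genes was 0.942, and without COL27A1 that of matrix genes 0.494 in place of 0.782. Of 31 integrin and focal adhesion genes with interior, 21 (67.7%) held a deep summit, beside 18.1% of all genes with interior. These 31 genes had 47 summits in all, or 1.15 per 100 kb (95% Poisson interval 0.845 to 1.53). The single lists gave 1.39 in replicate 1 and 1.30 in replicate 2, and in replicate 1 glucose and lipid genes stood higher, at 1.55 (1.07 in replicate 2). The matched count of the adhesion genes was 3.58 times the 13.1 that genes of like interior length would hold. Besides BCAR3, LPP, a LIM protein of focal adhesions, had 6 summits, the strongest with folds of 75.4 and 64.1, and TNS3, a tensin, had 3, the strongest with 11.4 and 16.4. The members without a deep summit were the receptor genes ITGA5, ITGAV, ITGB1 and ITGB8, and also TLN1, TNS4, FERMT1, BCAR1, CAV1 and NEDD9. Of the 47, 19 passed IDR 0.05, and BCAR3 alone accounted for 11 of the 47. The lists were chosen with earlier results of these data known, so they are described by their counts, without a test.

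TGF-beta, BMP and SMAD genes had 28 summits in 12 of 29 genes (0.988 per 100 kb, 0.657 to 1.43), which was 2.69 times the count for like lengths. CRIM1 had 6 and TGFBR3, a TGF-beta co-receptor, 4, with the strongest there at 26.6 and 23.4. TGFBR2, the signalling receptor, had 3, and none of the folds in TGFBR2 exceeded 11.3. Hippo pathway genes had 24 summits in 11 of 22 (0.911 per 100 kb, 0.584 to 1.36), or 2.71 times. Among them FRMD6, a FERM protein upstream of the pathway, had 6, with the strongest at 12.8 and 12.6. The transcription factor gene TEAD1 had 4, with the strongest at 29.1 and 29.4, and NF2, a tumour suppressor upstream, had 3.

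Genes of glucose and lipid metabolism had 17 summits in 9 of 30 (0.906 per 100 kb, 0.528 to 1.45), or 2.28 times. Of these genes 30% held a summit, beside 13.3% of all genes with 20 to 50 kb, where their median interior (44.2 kb) lies. HK1, a hexokinase, had 4, with the strongest at 13.4 and 17.4, and LPIN1, a phosphatidate phosphatase, 4, with the strongest at 44.6 and 32.0. SLC2A1, the glucose transporter GLUT1, had 2 within only 13.5 kb of interior, the stronger at 13.99 and 14.9. Extracellular matrix and protease genes had 28 summits in 9 of 29 (2.198 times), of which COL27A1 held 11, ADAM12, a membrane metalloprotease, 5, and ADAMTS12 4. Oxidative phosphorylation and the citric acid cycle, the classical ERRα programme, had 5 summits in 4 of 24 genes (16.7%, 1.18 times). These genes are short, with a median interior of 20.2 kb, and 13.3% of all genes with 20 to 50 kb held a summit. OGDH, a subunit of the oxoglutarate dehydrogenase complex, held 1 strong deep summit (83.9 and 65.8), NDUFA10, of complex I, 1 of 8.37 and 9.27, and PC, pyruvate carboxylase, 2 (5.28 and 8.09, 5.50 and 6.81).

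Nuclear receptors and their coregulators had 28 summits in 15 of 34 genes (44.1%, with 0.415 per 100 kb, 0.276 to 0.6001), or 1.48 times. Their median interior was 128 kb, and 33.7% of all genes with 100 to 200 kb held a summit. PPARD, a receptor for fatty acids, had 5, of which 1 passed IDR 0.05 (24.1 and 20.7). NRIP1, a corepressor, had 2, the stronger at 12.6 and 9.67. The oestrogen receptor gene ESR1 and PPARG had none. AP-1 and stress transcription factor genes stood at 1.51 times with 16 summits, led by NFATC2 with 5. Receptor tyrosine kinases and MAPK feedback genes stood at 1.87 times with 18, led by NRG1 with 4, Wnt pathway genes at 1.15 with 10, and genes of epithelial-mesenchymal transition at 1.24 with 19, led by CDH4 with 4. Chromatin and transcription genes were at 0.877 with 17, led by HDAC9 with 4.

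Long neuronal genes had the lowest density, 0.0617 per 100 kb (0.0419 to 0.0875), with 31 summits in 50.3 Mb. This was 0.194 times the mean rate and 0.615 times that of genes of like length. DLGAP1, a postsynaptic scaffold gene, had 4, as did NRXN3 and PCDH15, and 25 of 40 genes had none. A summit was held by 37.5% of the list, beside 47.7% of all genes with over 1000 kb of interior. The median interior of the list was 1130 kb, and its genes are themselves part of the like-length groups. In each replicate's own list the neuronal genes were again lowest (0.0955 and 0.0995).

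**Figure D5:**
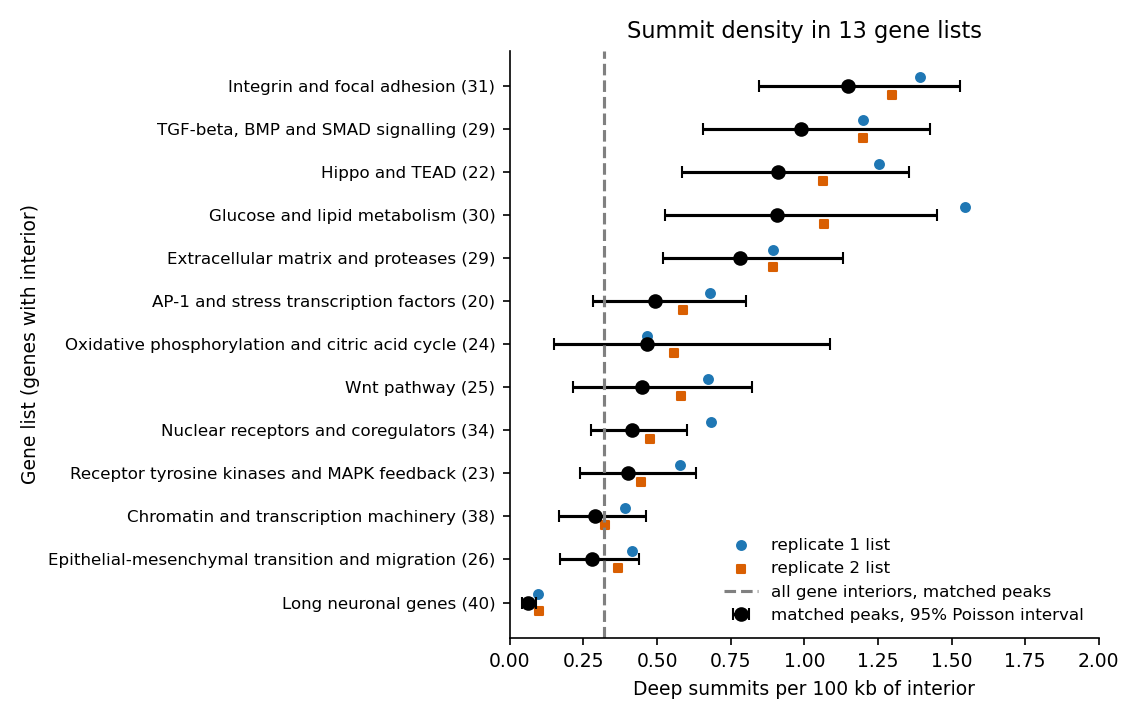
Deep summits per 100 kb of interior in 13 gene lists (number of genes with interior in brackets); black points with 95% Poisson intervals are matched peaks, circles and squares the lists of replicates 1 and 2, and the dashed line is the rate of 0.319 over all gene interiors. Integrin and focal adhesion genes lie at 1.15 and long neuronal genes at 0.0617.

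The density of deep summits also differed between chromosomes. It was highest on chromosomes 19 (0.807 per 100 kb of interior, 95% Poisson interval 0.657 to 0.981) and 20 (0.788, 0.668 to 0.922), followed by 22 (0.553) and 17 (0.542). It was lowest on X, with 15 summits in 39.3 Mb (0.0382, 0.0214 to 0.0630), and next on chromosomes 4 (0.165) and 21 (0.170). Chromosomes 19 and 20 were highest and X lowest in each single list too, with 1.05, 0.976 and 0.0764 in replicate 1 and 1.01, 0.909 and 0.0586 in replicate 2. BCL2L1, PREX1, NOL4L and DLGAP4 are on chromosome 20. The part of the chromosome in their counts was not tested.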

How the data were processed

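Per the submitters' processing notes, the tools were MACS2 2.2.6, Bowtie2 2.3.5, Trim Galore 0.6.5, deepTools, SAMtools and Picard, on genome build hg38. Tool settings were not given in the sources used here. For peaks, the authors deposited 1 peak list for each ChIP replicate, called against the inputs, and a list of matched peaks in the layout of IDR output. Fold enrichment is the authors' ratio of ChIP to local input background at each peak. Each deposited peak has a −log10 p and a −log10 q, the latter from 1.35 upward in replicate 1 and 1.37 in replicate 2. The deposited score of the matched list ran from 154 to 1000, and scores of at least 540 and 830 stand for IDR 0.05 and 0.01. Library depth is stated in the labels' protocols only as a rounded value for ChIP and a lower one for input samples. No read counts per peak were used here, so intervals cover the number of summits only.

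Summits were placed by the matched list, and 305 matched peaks on other contigs and Y were left out. Folds are those of each replicate's highest peak in the matched interval (7 and 9 deep summits joined several peaks in replicates 1 and 2). Genes came from a RefSeq table of GRCh38.p14 (19974 protein-coding genes on these chromosomes), the same build as hg38, and strands and sequences from RefSeq promoter windows. Genes of like length were 7 groups by interior, each with the gene or list in question included. Named genes were the 20 with most summits, the 15 densest (at least 3 summits, 20 kb of interior), hosts of the 15 strongest, the 8 longest empty genes, and 3 for each of 14 lists (487 of 488 entries matched), apart from the start-site genes and other list members, which were named after their values were seen. The members and lists were chosen with earlier results of these data known. Interval code was tested on simulated data. Python 3.11.15, pandas 2.3.3, numpy 2.4.6 and scipy 1.17.1 were used. Alternatives were other distances, IDR or q limits, single lists and summits in 1 gene only. Of the named genes and lists, 2 genes and 1 list are not reported here. Sequence under the other summits was not analysed here.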

Additional observations from a re-analysis of the deposited data

How the results depend on the processing

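Of 3051 deep summits, 1530 were left at IDR 0.05 and 1175 at IDR 0.01, with median mean folds of 12.8 and 14.9 (8.38 for all), 1189 and 956 host genes, and 5 and 1 genes with at least 5 summits, against 62. These limits remove weaker peaks by construction. The share of deep summits moved with the distance that defines them, to 36.5% beyond 5 kb and 22.8% beyond 20 kb. With a −log10 q of at least 5 in both replicates the median was 9.13 and 58.1% passed IDR 0.05. In the list of a single replicate, the median fold was 7.18 to 7.29 and 102 to 119 genes had at least 5 summits. The other values of number, share, host genes and IDR passes stayed within 1.5 times or their intervals. Of 31 named genes, 27 fell in density by over 1.5 times at IDR 0.05 and 29 at IDR 0.01, 3 of them to 0. In replicate 1's list alone 5 (GSE1, EXT1, KCNMA1, ASAP1 and PLEC) were over 1.5 times higher, and beyond 20 kb TMEM51 was higher and ADGRG1 fell from 11.6 per 100 kb to 0. List densities at IDR 0.05 and without BCAR3 or COL27A1 were chosen after seeing the data. With AAGGTCA, chosen after seeing the data, 46.7% of start-site windows matched, and with IDR 0.05 33.3% held TNAAGGTCA. The planned motif tests under all summits were not run, since no genome sequence was used here. No paired analysis was possible because the inputs enter only through the folds and no test was made. Peaks share 2 libraries, and neighbouring summits are not independent.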

Other observations

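Of the 3051 deep summits, 248 (8.13%) also lay inside an annotated gene that is not protein-coding, 233 of them (7.64%) in a long non-coding RNA gene. No share of the gene interior or of all matched peaks is set beside these counts, so neither excess nor lack can be read from them. The hairpin of 1 microRNA, MIR4519, lay within a deep peak, in BCL7C on chromosome 16, with folds of 18.9 and 14.9, and 1314 bp from the summit. Beside the genes named by rule, SMAD3, a mediator of TGF-beta signalling, held 3 deep summits with folds of 77.3 and 78.6, 22.1 and 19.3, and 9.51 and 7.65, and EGFR, the epidermal growth factor receptor, held 1 with 19.8 and 15.4. Both were chosen after their values were seen.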
